A study of Mus musculus with 6 samples.

Results

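The motile cilia programme around Foxj1 was followed here as 40 genes in flat cultures of mouse airway organoids with and without transforming growth factor beta 1 (TGF-β1). The members were taken by name and fall into 10 regulators and 30 structural genes. The regulators were 7 transcription factors and their partners (Foxj1, Mcidas, Gmnc, Myb, Rfx2, Rfx3 and Trp73) and 3 genes of centriole amplification (Ccno, Deup1 and Cdc20b). The structural genes encode dynein arms and the factors that assemble them, radial spokes, the ruler and dynein regulatory complex, the central pair, intraflagellar transport, the doublet microtubules with the proteins bound to them, and 2 enzymes. Each gene was reached through probes that carry one of its RefSeq accessions. By this rule 39 of the 40 members were on the array, among 22910 genes in all. Ccdc40 had no probe with a RefSeq accession and was not analysed here.

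The cultures, called 2D-MAOs, were C57BL/6 mouse lung airway epithelial cells that had been expanded as organoids and then spread in 6-well plates. In the treated group (n = 3) TGF-β1 was present from day 3, in the control group (n = 3) it was not, and both groups were harvested on day 7. For both groups the medium lacked noggin, a secreted inhibitor of bone morphogenetic proteins, and A83-01, an inhibitor of the TGF-β type I receptor. RNA came from whole cultures, so that fewer ciliated cells and less RNA per ciliated cell cannot be told apart.

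Motile cilia are the beating protrusions with which multiciliated cells of the airway move mucus. Their differentiation starts with Gmnc and Mcidas, geminin relatives that work with E2F factors, and passes through Myb and Trp73 to Foxj1, the forkhead factor that switches on genes of the motile axoneme together with the RFX factors. Ccno, Deup1 and Cdc20b act in parallel, in the mass production of centrioles from which the cilia grow. The axoneme itself is a ring of doublet microtubules around a central pair, bent by dynein motors and kept in register by radial spokes and linking complexes.

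Since RFX factors and Foxj1 act at promoters, the RefSeq promoter sequences of the members (assembly GRCm38.p6, 250 bases before to 50 bases after a gene's start) were searched on both strands for the RFX half-site GTTGCCA and the forkhead site TGTTTAC. A sequence was held for 33 members. The RFX half-site stood in 10 of these (30.3%), 3 of 9 regulators and 7 of 24 structural genes, beside 1358 of 27025 genes in all (5.02%). The forkhead site stood in 2 of 33 members (6.06%), Ak7 and Myb, beside 4.05% of all genes. The windows below are those of the members whose RFX half-site lies before the start, read 5′ to 3′ along the gene's own strand, with the half-site in capitals. They are shown because they place the same letters in front of regulators and structural genes that are compared in what follows.
Mcidas: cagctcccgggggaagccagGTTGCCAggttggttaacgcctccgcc
Ccno: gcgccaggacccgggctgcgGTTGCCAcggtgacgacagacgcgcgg
Deup1: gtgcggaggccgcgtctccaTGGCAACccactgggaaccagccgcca
Tekt1: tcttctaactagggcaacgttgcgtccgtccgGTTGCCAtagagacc
Pifo: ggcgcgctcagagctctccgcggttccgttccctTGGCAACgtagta
Drc1: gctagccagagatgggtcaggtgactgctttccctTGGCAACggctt
Mns1: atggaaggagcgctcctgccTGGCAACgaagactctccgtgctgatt
Hydin: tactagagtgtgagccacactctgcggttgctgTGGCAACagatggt

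These windows lie at chr13:112993653-112993699 (Mcidas, plus strand), chr13:112987563-112987609 (Ccno, plus strand), chr9:15627900-15627946 (Deup1, minus strand), chr11:72361883-72361929 (Tekt1, minus strand), chr3:106001498-106001544 (Pifo, minus strand), chr5:30281346-30281392 (Drc1, plus strand), chr9:72438436-72438482 (Mns1, plus strand) and chr8:110266930-110266976 (Hydin, plus strand). In Mcidas, Ccno and Tekt1 the letters GTTGCCA run along the gene's strand, and in the other 5 they run along the opposite strand, where they read TGGCAAC. In Ift88 and Zmynd10 the half-site lies after the start. In the reference annotation the protein-coding genes Ccno, Mcidas and Cdc20b follow one another along chromosome 13.

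Signals are given as log2 of the background-subtracted brightness of a spot after quantile normalization across the 6 arrays, so that 1 unit is a 2-fold change. Brightness depends on the probe, and levels were therefore compared between arrays and not between genes. A gene was tested when its brightest probe was well above background, a mark set by Agilent Feature Extraction, on at least 3 of the 6 arrays. This held for 14345 genes and for 32 members, of which 30 were well above background on all 6 arrays. Differences are TGF-β1-treated minus control with the standard error of limma, a linear model per gene whose estimates of spread borrow from all genes. A call required at least a 2-fold difference and, over all genes tested, a p under 0.05 after Benjamini-Hochberg adjustment. Of the probes on an array, 55.0% to 59.0% were well above background, with all 6 arrays on 1 slide, and the number of arrays limited the precision.

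The state of the cultures bears on every value below. Epithelial markers were well above background on all 6 arrays (6 of 6), as were 9 of 10 ciliated cell markers, while Sntn, which encodes a protein of the ciliary tip, was so on none. The goblet cell mucins Muc5ac and Muc5b were likewise below that mark on every array. Of 10 genes known to respond to TGF-β, 9 were higher in treated cultures and 4 were called, including Tgfbi, which rose by 4.58 on the log2 scale (adjusted p = 0.0025, limma). TGF-β1 replicate 3 stood apart from the other treated cultures in many proliferation genes, though not in one direction. Mki67 was at 10.72, 9.73 and 7.74 in treated replicates 1, 2 and 3. Tpx2, Mcm2, Pcna and Tyms were instead highest in treated replicate 3, with Pcna at 13.41, 13.29 and 13.85.

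Foxj1 rose in TGF-β1-treated 2D-MAOs and was the only member called. Its signal was 7.56, 7.55 and 7.64 in the control cultures and 9.02, 9.09 and 9.05 in the treated cultures. The groups did not overlap, and the SD was 0.047 among controls and 0.039 among treated cultures. The difference was 1.47 ± 0.096 (SE, n = 3 per group), or 2.77-fold, with a 95% interval of 2.36- to 3.24-fold and an adjusted p of 0.0024 from limma. By p, Foxj1 stood at place 9 among 14345 genes, and 207 genes had a larger difference. Among all genes tested 1.19% were called higher and 0.188% lower, beside 1 and 0 of 32 members. Foxj1 was called under each of the alternatives of processing run here, with a difference of 1.23 to 1.53. It had 1 probe on the array, so that no second probe could be set beside it.

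**Figure D1:**
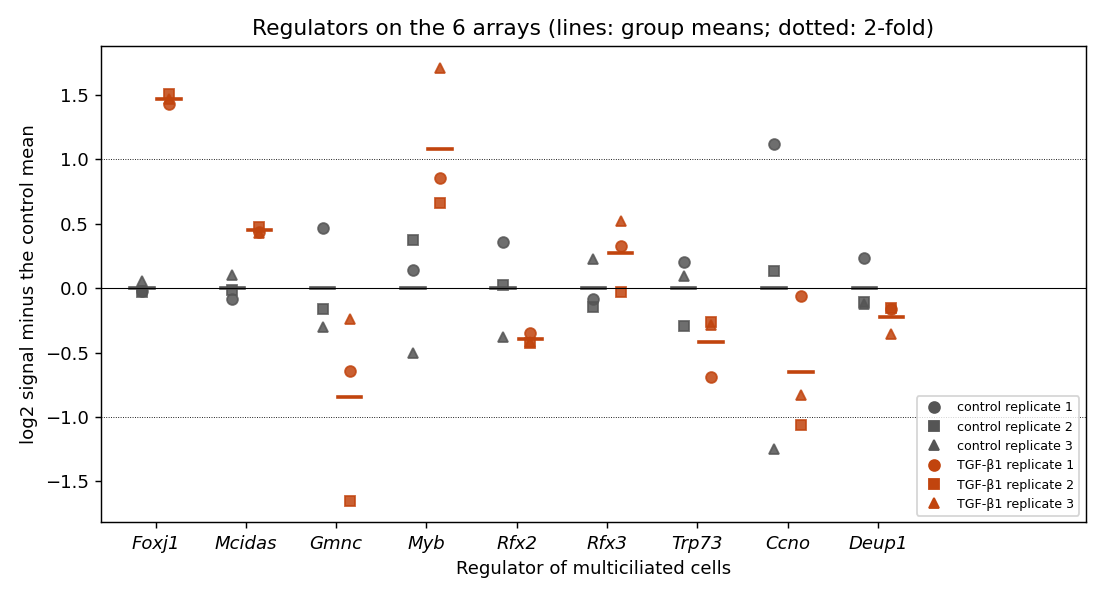
Log2 signal of the 9 regulators tested, on each of the 6 arrays, minus the gene's control mean. Grey symbols are control and red symbols TGF-β1-treated cultures, with the shape giving the replicate, short lines the group means and dotted lines a 2-fold change. The 3 treated values of Foxj1 lie together above the 2-fold line, and those of Mcidas lie together at 0.45 on average, whereas Gmnc, Myb and Ccno spread widely within groups.

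The regulators that act before Foxj1 did not share a direction. Mcidas was at 11.33, 11.40 and 11.52 in controls and at 11.85, 11.89 and 11.84 in treated cultures. All 3 treated values lay above all controls, and the difference was 0.45 ± 0.10 (SE), or 1.36-fold, with an adjusted p of 0.087 in limma. This p was under 0.05 in some alternatives, the lowest 0.0083 with array weights, while the difference stayed short of 2-fold. The size rests on 1 probe. A second, dim probe for Mcidas gave a mean of 4.59 in controls and 4.21 in treated cultures, a difference of −0.38, and it was not well above background on 1 treated array. With the mean of both probes the difference was 0.03.

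Myb, a factor of early multiciliated differentiation that also acts in dividing progenitors, was at 7.36, 7.59 and 6.71 in controls. It was at 8.08, 7.88 and 8.93 in treated cultures, again without overlap. The difference was 1.08 ± 0.33 (2.11-fold) with an adjusted p of 0.15 from limma. The highest value came from TGF-β1 replicate 3, and without this array the difference was 0.76. The 95% interval of the difference over all arrays ran from 0.29 to 1.86.

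Gmnc, which stands at the head of the programme, pointed the other way. Its signal was 8.80, 8.17 and 8.03 in controls and 7.69, 6.68 and 8.09 in treated cultures. Treated replicates 1 and 2 lay below every control and treated replicate 3 lay between controls. The difference of −0.84 ± 0.38 had an adjusted p of 0.25 in limma. With weights for the arrays it was −1.17 with an adjusted p of 0.038, and Gmnc was then called lower. The value depended on single arrays, from −1.14 without TGF-β1 replicate 3 (adjusted p = 0.076, limma) to −0.45 without TGF-β1 replicate 2 (adjusted p = 0.52, limma).

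Trp73, the p53 relative required for multiciliated cells, was at 8.19, 7.69 and 8.08 in controls and at 7.29, 7.72 and 7.70 in treated cultures. The groups overlapped through control replicate 2, and the difference was −0.41 ± 0.18 with an adjusted p of 0.24 in limma. Another 2 probes for Trp73 had differences of 0.72 and 0.24, at signals that were well above background on no more than 1 array of each group.

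The RFX factors, which bind the half-site shown above, also differed in sign. Rfx2 was at 7.18, 6.85 and 6.45 in controls and at 6.48, 6.40 and 6.41 in treated cultures, a difference of −0.40 ± 0.19 (adjusted p = 0.26, limma). The treated values lay close together at the lower end of the controls. Rfx3 was at 8.74, 8.68 and 9.06 in controls and at 9.15, 8.80 and 9.35 in treated cultures, a difference of 0.27 ± 0.18 (adjusted p = 0.38, limma). The 2 groups overlapped for both genes.

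None of the genes of centriole amplification was called. Ccno, a cyclin relative, was at 10.43, 9.45 and 8.07 in controls and at 9.26, 8.25 and 8.49 in treated cultures. The control arrays alone spanned more than the difference of −0.65 ± 0.58 (adjusted p = 0.52, limma), which was −0.093 without control replicate 1 and −1.27 without control replicate 3. Deup1, which builds the deuterosome, was at 5.24, 4.90 and 4.88 in controls and at 4.84, 4.85 and 4.65 in treated cultures. Every treated value was below every control, by a margin smaller than the spread of the controls, and the difference was −0.23 ± 0.14 (adjusted p = 0.36, limma). Cdc20b was well above background on 1 control array and on no treated array, and was not tested. Mcidas and Ccno are neighbours on chromosome 13 with a half-site in each promoter, and their differences, 0.45 and −0.65, were of opposite sign, though neither was called.

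Over the 9 regulators tested, 4 were higher and 5 lower, with a median difference of −0.23 beside −0.03 for all genes. With scaling to the 75th percentile the median of the regulators was −0.057 beside −0.094 for all genes, and with a normexp background −0.012 beside −0.020, so that their place relative to all genes turned with the setting. Without Foxj1 the lowest adjusted p among them was 0.087. At an unadjusted limma p under 0.05, 3 regulators (Foxj1, Mcidas and Myb) and 1 structural gene (Dnah9) were higher, 4 of 32 members (12.5%), and none was lower. The same threshold took 11.4% of all genes as higher and 10.7% as lower.

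**Figure D2:**
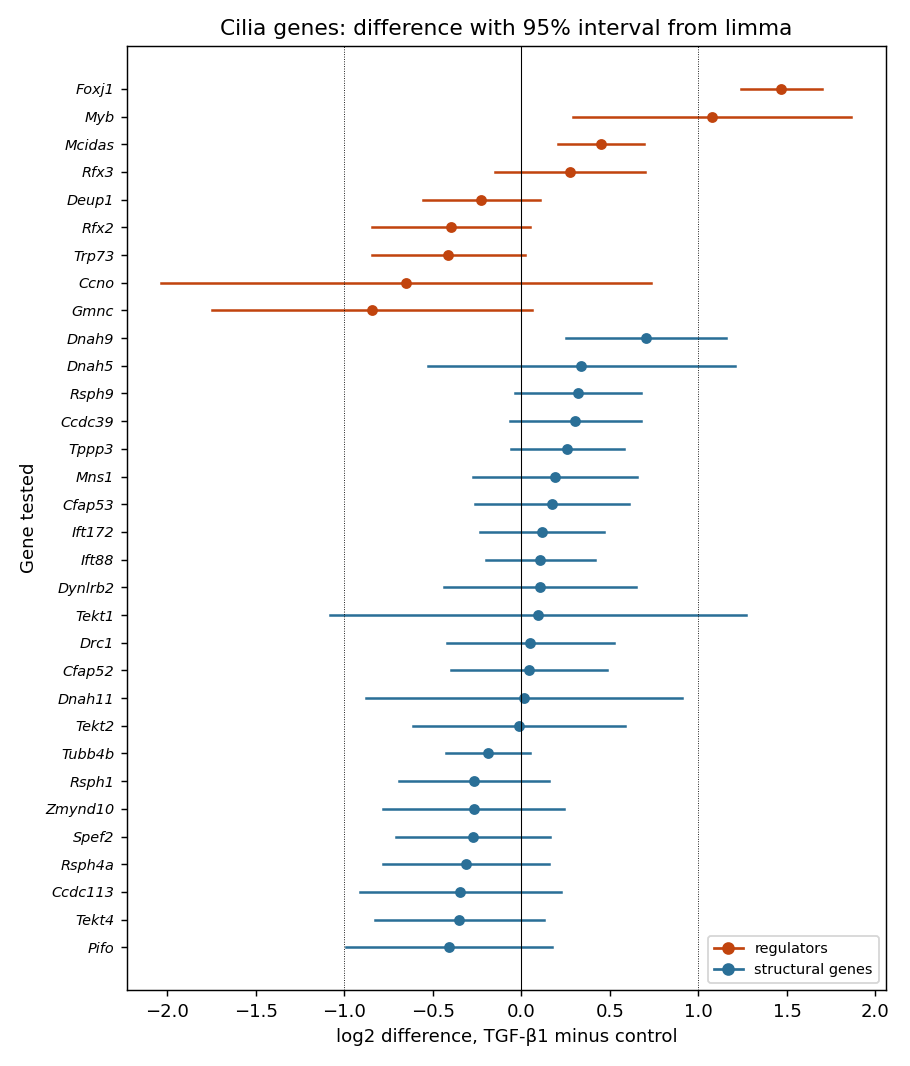
Difference in log2 signal, TGF-β1-treated minus control, for the 32 members tested, with regulators in red and structural genes in blue. Points are limma estimates, horizontal lines their 95% intervals and dotted lines a 2-fold change. Only the interval of Foxj1 lies wholly above the upper dotted line, and of the structural genes only that of Dnah9 lies wholly to one side of 0.

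No structural gene passed the test. Of the 23 tested, 14 were higher and 9 lower, the differences ran from −0.41 to 0.71, and their median was 0.05, or −0.08 without TGF-β1 replicate 3 and −0.02 without control replicate 2. The lowest adjusted p among them was 0.12. For 22 of 23 the difference was under 0.5 in size, and for 22 of 23 the 95% interval held 0. A failed call alone does not bound a change, so the intervals were read as well. Their upper end was below a 2-fold increase for 20 genes and their lower end above a 2-fold decrease for 22. For all 23 the upper end, at most 1.27, was below the estimated difference of Foxj1. The 95% interval of Foxj1 itself began at 1.24, below the highest of these upper ends. Taken within each array, the log2 ratio of Foxj1 to a structural gene was higher on every treated array than on every control array for 22 of 23 genes. The same held for 13629 of the 14344 other genes tested (95%), so that this count describes Foxj1 more than the structural genes.

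Dynein arms carry the motors of the cilium. Dnah9, an outer arm heavy chain, had the largest structural difference, although with a normexp background it fell to 0.26, below the 0.32 of Rsph9. It was at 4.08, 4.56 and 4.35 in controls and at 5.26, 4.71 and 5.12 in treated cultures, without overlap. The difference was 0.71 ± 0.19 (1.63-fold) with an adjusted p of 0.12 from limma, and the signal was close to the background mark, which 1 control array did not reach. Dnah5, the other outer arm heavy chain that is mutated in many patients with immotile cilia, was at 5.58, 5.07 and 6.39 in controls and at 6.10, 5.54 and 6.41 in treated cultures. Here the groups overlapped, and the difference was 0.34 ± 0.36 (adjusted p = 0.60, limma), or 0.033 without control replicate 2 and 0.69 without control replicate 3. Dnah11, a further heavy chain, and Dynlrb2, a light chain, differed by 0.02 and 0.11. Zmynd10, which helps to assemble dynein arms in the cytoplasm, differed by −0.27. Dnaaf1, another assembly factor, stayed below the mark for background on every array.

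Radial spokes, which signal from the central pair to the dyneins, gave both signs. Rsph9 was at 10.65, 10.30 and 10.25 in controls and at 10.69, 10.58 and 10.89 in treated cultures, a difference of 0.32 ± 0.15 (adjusted p = 0.26, limma). Control replicates 2 and 3 lay below every treated array, and control replicate 1 lay among them. Rsph1 and Rsph4a, head proteins of the same spokes, differed by −0.27 and −0.31.

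Of the genes that set the spacing of these complexes, Ccdc39, part of the ruler, was at 4.62, 4.36 and 4.70 in controls and at 5.09, 4.65 and 4.85 in treated cultures. The difference was 0.30 ± 0.16 (adjusted p = 0.29, limma). A second Ccdc39 probe differed by 1.65, from a mean of 3.10 to 4.76, but was well above background on no control array and on 2 treated arrays. Drc1, of the dynein regulatory complex, differed by 0.05. Ccdc113 was at 5.44, 5.47 and 5.17 in controls and at 5.16, 4.49 and 5.40 in treated cultures, a difference of −0.34 ± 0.24 (adjusted p = 0.41, limma), with treated replicate 2 the lowest.

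The central pair and the enzymes were poorly detected. Spef2 was the only one of 4 central pair genes tested, at a difference of −0.27. Hydin and Spag16 were well above background on 1 control array each and on no treated array, and Spag17 on none. The 2 genes for enzymes of the cilium, the adenylate kinase Ak7 and the kinase Stk33, were also below that mark on all 6 arrays. With Cdc20b and Dnaaf1 this made 7 members on the array that were not tested.

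**Figure D3:**
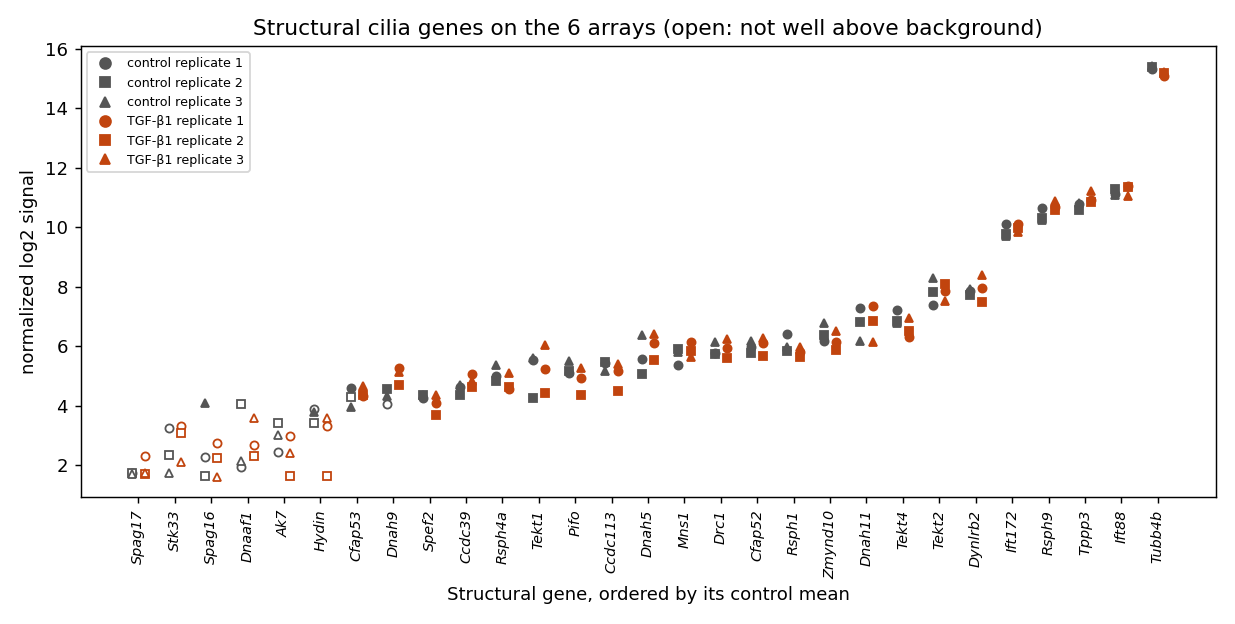
Normalized log2 signal of the 29 structural genes on the array, ordered by control mean, with control arrays in grey and TGF-β1-treated arrays in red. Filled symbols are well above background and open symbols are not, and the shape gives the replicate. The 6 genes at the left were not tested, and in most other genes the 2 colours overlap.

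Ift88 and Ift172, which carry cargo in motile and primary cilia alike, differed by 0.11 each, and each had a second probe of opposite sign (−0.03 and −0.33). Among the doublet microtubule genes Pifo and Tekt4 were the lowest. Pifo was at 5.11, 5.16 and 5.52 in controls and at 4.94, 4.36 and 5.27 in treated cultures, a difference of −0.41 ± 0.24 (adjusted p = 0.35, limma). Tekt4, a tektin filament protein, was at 7.21, 6.86 and 6.78 in controls and at 6.32, 6.51 and 6.97 in treated cultures, a difference of −0.35 ± 0.20 (adjusted p = 0.33, limma). In both genes treated replicate 3 lay among the controls. The tektins Tekt1 and Tekt2 differed by 0.09 and −0.01, and the inner proteins Mns1, Cfap52 and Cfap53 by 0.19, 0.04 and 0.17.

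Tubb4b, the beta tubulin of the axoneme and also of the cytoplasm, was at 15.30, 15.37 and 15.40 in controls and at 15.09, 15.19 and 15.23 in treated cultures. The groups did not overlap, and the difference was −0.19 ± 0.10 (adjusted p = 0.30, limma), with −0.41 on a second probe. Tppp3, a tubulin-binding protein used as a ciliated cell marker, was at 10.79, 10.59 and 10.81 in controls and at 10.92, 10.85 and 11.20 in treated cultures. It lay above the controls on every treated array, at a difference of 0.26 ± 0.13 (adjusted p = 0.30, limma). In all, 5 of 32 members lay above and 2 below the controls without overlap, 15.6% and 6.25%, beside 12.9% and 13.5% of all genes.

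Many structural genes were measured near background. On 13 of 23 structural probes the spot was less than 4 times as bright as its surroundings on every array, and on 5 it was more than 10 times as bright on every array. Among regulators this held for 1 and 2 of 9. Whether this lowered their differences was not tested. The 5 bright structural genes, Rsph9, Ift88, Ift172, Tubb4b and Tppp3, differed by −0.19 to 0.32.

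The promoter windows were set beside the differences of the structural genes, as a description. The 6 tested structural genes with the RFX half-site had a median difference of 0.07, and the 13 with a promoter sequence but no half-site had a median of 0.04.

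Other genes of the cilium and its regulation, in lists written from general knowledge, were counted in the same way. Of 112 other motile cilia genes 102 were on the array and 72 were tested, with 39 higher, 33 lower and a median difference of 0.03. Ccdc65, a subunit of the dynein regulatory complex, was the only one called. It was at 3.87, 3.44 and 3.42 in controls, not well above background on any of them, and at 4.87, 5.00 and 5.06 in treated cultures. Its signal was at least 2.00-fold higher (adjusted p = 0.011, limma), a gene that entered the test through the treated arrays alone. Of those detected on every array, Nme5 (0.63), Enkur (0.63) and Cfap70 (0.62) had the largest positive differences and Tekt5 (−0.76) was among the lowest, none past the adjusted threshold. Iqck was lower by −0.63 with an adjusted p of 0.046, short of 2-fold.

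All 56 genes of the primary cilium and intraflagellar transport were tested, 39 higher and 17 lower with a median of 0.08, and none was called. Bbs12, of a chaperonin-like complex that assembles the BBSome, was higher by 0.80 with an adjusted p of 0.044. Of 21 centriole genes 8 were higher and 13 lower with a median of −0.06, from −0.44 for Cep85 to 0.56 for Cetn4, and none was called. Another 24 regulators of multiciliated fate had 10 higher, 14 lower and a median of −0.06, with no call. Dll1, a Notch ligand of differentiating cells, had the largest difference among them, from 8.78, 9.08 and 9.54 in controls to 10.79, 10.26 and 10.11 in treated cultures (1.26, adjusted p = 0.062, limma). Id2, an inhibitor of basic helix-loop-helix factors, had the lowest, at −0.73 (adjusted p = 0.10, limma).

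**Figure D4:**
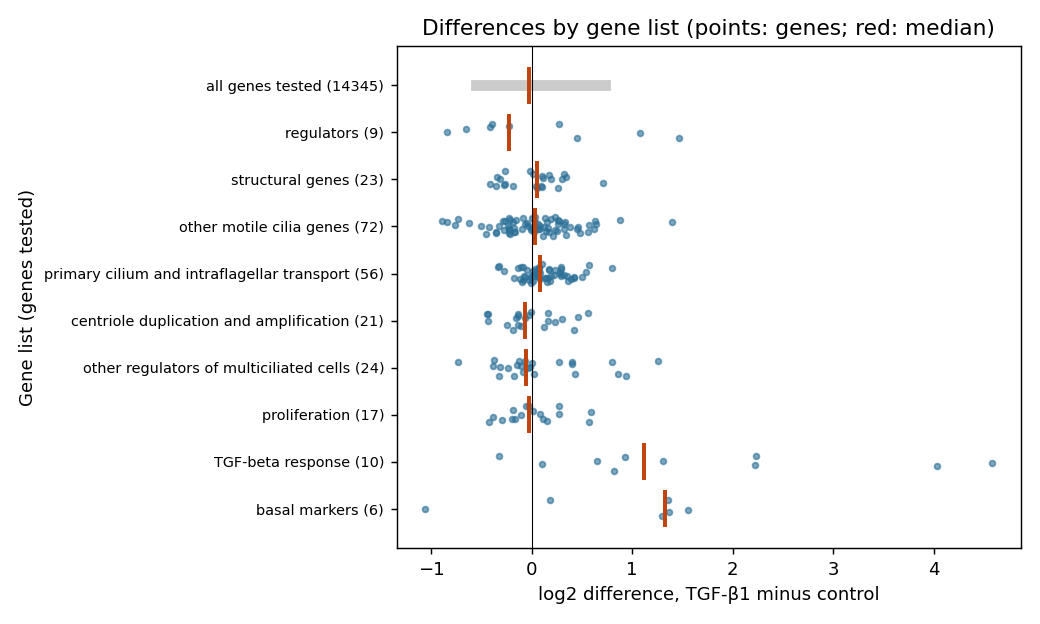
Difference in log2 signal, TGF-β1-treated minus control, of the genes tested in each list, with the number of genes in parentheses, red lines for medians and a grey bar for the 5th to 95th percentile of all genes (−0.55 to 0.73). The structural genes and the further cilia lists centre close to the median of all genes at −0.03, and the 9 regulators centre at −0.23. Foxj1 and Myb are the rightmost of these 9, while the lists of TGF-β response genes and basal markers centre at 1.12 and 1.32.

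Markers of other cells also differed between the groups, though among them only the collagens Col1a1 and Col1a2 were called. Their part in the differences of the cilia genes was not tested. Of 6 basal cell markers 5 were higher with a median difference of 1.32, and none was called. Treated replicate 3 lay among the controls for Krt5 and Ngfr, while 3 basal markers lay above the controls on every treated array. The summed signal of the 6 ran from 15.45 to 15.90 in controls and from 15.81 to 17.19 in treated cultures. Scgb1a1, the secretory protein of club cells, was at 10.83, 10.18 and 7.77 in controls and at 7.00, 7.57 and 7.42 in treated cultures (−2.27, adjusted p = 0.16, limma). Scgb3a2, another secretory protein of club cells, was at 8.64, 9.46 and 9.05 in controls and at 10.55, 10.08 and 9.66 in treated cultures, without overlap (1.05, adjusted p = 0.12, limma). The summed signal of 7 club markers, carried mostly by Cyp2f2, was 17.33 to 17.39 in controls and 17.25 to 17.32 in treated cultures. Of 6 fibroblast markers 4 were tested, and all 4 had positive differences. The collagens Col1a1 and Col1a2, not well above background in any control, entered the test through the treated arrays alone. Their positive sign therefore adds nothing to that count. They were at least 2.16- and 2.38-fold higher and were called. Dcn went from 8.98, 8.81 and 8.96 to 11.10, 9.68 and 8.98 (1.00, adjusted p = 0.27, limma) and Pdgfra differed by 0.21, while Pdgfrb and Lum were at background on all 6 arrays. The summed signal of the fibroblast list was 9.10 to 9.29 in controls and 9.40 to 11.23 in treated cultures. Of 6 leukocyte markers 3 were tested, 2 higher and 1 lower. The summed signal of all 6 was 12.45 to 12.67 in controls and 12.97 to 13.31 in treated cultures. The summed signals of type 1 and of type 2 alveolar markers overlapped between the groups. The summed signal of the 10 ciliated markers, Foxj1 included, was 11.38 to 11.54 in controls and 11.66 to 12.02 in treated cultures. It was carried mostly by Tppp3. Without Foxj1 the groups overlapped, at 11.27 to 11.44 in controls and 11.40 to 11.82 in treated cultures. Without Foxj1 and Tppp3 they also overlapped, at 9.85 to 9.99 in controls and 9.74 to 10.31 in treated cultures. Of the 9 tested 6 were higher and 3 lower with a median of 0.11.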

How the data were processed

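RNA of 3 TGF-β1-treated and 3 control cultures was hybridized to 1 Agilent mouse array each, with a single dye. The authors deposited the spot intensity on a linear scale, background-subtracted by Agilent Feature Extraction 11.0.1.1 (per the labels), without normalization between arrays, together with median spot and local background intensity and other marks such as well above background. Because the probes were annotated on another mouse assembly than the gene table (GRCm38.p6), the files' own gene positions are not used here. Of 35883 probes with a RefSeq accession, 32991 matched a gene. Flagged spots were left out (74 to 112 per array). Where a spot was not positive and significant, the processed value is a surrogate.

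Log2 intensity was quantile-normalized, each gene was represented by its brightest probe, and groups were compared with limma 3.58.1 in R 4.3.3, without covariates. Where no array of a group was well above background, a lower bound was computed against the lowest signal of probes well above background. The labels name biological replicates without saying how they arose, so p-values measure the spread between these samples. A permutation test of 3 against 3 could not go below 0.1. The analysis was tested on simulated data. All tests were two-sided.

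The members and lists were chosen with earlier results of these data known. Every member is named. Values on each array are given for regulators, for members with an unadjusted p under 0.05 and for the 3 highest and lowest structural genes well above background on all 6 arrays, and further for Tubb4b and Tppp3, whose values were added after they were seen. Of other lists at most 3 genes in each direction are named, apart from Ccdc65, the collagens and genes at background, chosen after their values were seen. A gene that the rule selects is left out of the text. Alternatives were 75th percentile scaling, normexp background (offset 50) on the median spot intensity, no filter, a filter requiring detection on every array, the mean of the probes, a trend and robust prior, array weights, a block for the replicate number or the slide row, leaving out each array, other thresholds and the methods' t-test.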

Additional observations from a re-analysis of the deposited data

How the results depend on the processing

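The call of Foxj1 held under each alternative run, with an adjusted p of 0.00042 to 0.024, and with each array left out the difference was at least 1.44. Foxj1 had 1 probe, so that the mean of the probes could not change its difference. Over 16 members with 14 or 15 alternatives each, 239 results in all, 238 kept their direction and their joint call by fold and adjusted p. None reversed, and Gmnc was newly called with array weights, so that 1 member was then lower. The prior, the blocks and the missing filter change the p and not the difference, so that the direction could not change there. The adjusted p alone fell under 0.05 for Mcidas with normexp (0.039), a trend and robust prior (0.046), array weights (0.0083) and without TGF-β1 replicate 3 (0.045), and with array weights also for Dnah9 (0.023), Tekt4 (0.025), Rfx2 (0.032) and Myb (0.037), each short of 2-fold. Of the 16 differences 10 moved by over 1.5 times when 1 array was left out and 7 did with a normexp background, that of Foxj1 in neither case. An unadjusted p with a 2-fold change gave 2 members higher, Foxj1 and Myb. The median of the regulators was −0.057 with scaling to the 75th percentile, −0.012 with a normexp background and −0.29 to −0.093 with each array left out. The median of the structural genes was −0.079 to 0.11 with each array left out, the lowest without TGF-β1 replicate 3, and it was also below 0 without control replicate 2. The causes were not tested. With each array left out, 1 member was higher and 0 were lower throughout.

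Counts over all genes depended on the processing, from 171 higher and 27 lower to 594 and 213 with array weights and 49 and 11 without a filter. The methods' t-test called Foxj1 alone among the members, with 312 and 76 of all genes at the unadjusted threshold and 4 and 1 after Benjamini-Hochberg adjustment. Leaving out 1 array gave 36 to 509 higher and 6 to 158 lower, the most without TGF-β1 replicate 3. The correlations of same-numbered cultures were −0.0079, 0.33 and −0.047, beside −0.37 to 0.25 for differently numbered cultures. With 3 cultures a group these values cannot decide whether the numbers pair the cultures. With the replicate block 1 member was higher and 0 lower, and 85 and 18 of all genes, and no other call among the members changed.

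With 3 arrays a group, the intervals of Tekt1, Dnah5 and Dnah9 reached past a 2-fold increase, and that of Tekt1 past a 2-fold decrease. Dim probes and members not well above background limit what can be said of the central pair. Some probes of 1 gene disagreed in sign (3 of 7 members with more than 1 probe past the filter).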
